A study of Mus musculus with 40 samples.

Results

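The genes of cytochrome P450 families 1 to 3 were followed in liver RNA of male C57BL6/J mice given pioglitazone, a high-fat diet or both, with or without PPARγ in hepatocytes. Members were the protein-coding genes whose symbol was Cyp, a family number from 1 to 3, a subfamily letter and a gene number, and which reached a scaled read count (CPM, reads scaled to library size) of 1 in at least 5 of 40 mice. Of 58 genes with such a symbol, 40 in 13 subfamilies passed, among 12942 genes tested. All 12 genes of subfamilies 1a, 1b, 2a, 2e, 2f, 2r, 2s and 2u passed, as did 13 of 15 in 2c, 6 of 8 in 2d, 3 of 8 in 2j, 4 of 7 in 3a and 2 of 5 in 2b, while the single 2g, 2t and 2w genes did not.

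Poly-A selected RNA was sequenced from 8 groups of 5 mice. Wild-type (WT) mice were bought as C57BL6/J animals, and knockout (KO) mice carried loxP-flanked PPARγ alleles with Cre driven by the albumin promoter, so that the deletion was directed to hepatocytes and the other liver cells kept the gene. Each genotype received a control diet, the control diet with the thiazolidinedione pioglitazone (Pio), a high-fat diet (HFD) or the HFD with Pio (HFD-Pio). Feeding began at 2 months of age and lasted 3 months, Pio made up 0.01% of the diet by weight, and livers were taken at 5 months. Neither the labels nor the methods say that the WT mice carried Cre or the loxP sites, and WT and KO counts came in separate tables. Levels are therefore not compared between WT and KO mice here, since genotype and table cannot be told apart. Effects of Pio and of diet were tested within each genotype, and the difference of an effect between genotypes was tested as such.

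Cytochromes P450 of these families are heme enzymes of the endoplasmic reticulum that oxidise drugs, pollutants, steroids and fatty acids, with electrons passed on by NADPH-cytochrome P450 reductase. Many are made chiefly by hepatocytes around the central vein. Their genes are switched on by ligand-activated factors, among them the aryl hydrocarbon receptor for family 1, the constitutive androstane receptor (CAR) for Cyp2b10 and the pregnane X receptor (PXR) for Cyp3a11, and several differ between male and female mice through the pattern of growth hormone release.

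Most of these genes sit in clusters of near copies, and the counts hold only reads that matched 1 gene. Shown here are some of the pairs on which the results turn. The first 120 coding bases are given for each gene, from the GRCm38 genome with the GENCODE M21 annotation, 5′ to 3′, with capitals at each base that has no identical partner in an alignment with the other member of the pair. Cyp2a4 (chr7:26307218-26307337, + strand) and Cyp2a5 (chr7:26835364-26835483, + strand) differed at 1 of these bases and at 23 of 1485 over the whole coding sequence, an identity of 98.5%.
Cyp2a4: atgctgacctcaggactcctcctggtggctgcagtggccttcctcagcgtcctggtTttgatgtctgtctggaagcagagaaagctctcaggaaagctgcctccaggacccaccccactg
Cyp2a5: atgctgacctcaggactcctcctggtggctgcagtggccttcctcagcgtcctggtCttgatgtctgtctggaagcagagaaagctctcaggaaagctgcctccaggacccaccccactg
Cyp2j6 (chr4:96553332-96553451, − strand) and Cyp2j9 (chr4:96591226-96591345, − strand), which moved in opposite directions under Pio, differed at 27 of the first 120 bases and were 82.6% identical over the coding sequence.
Cyp2j6: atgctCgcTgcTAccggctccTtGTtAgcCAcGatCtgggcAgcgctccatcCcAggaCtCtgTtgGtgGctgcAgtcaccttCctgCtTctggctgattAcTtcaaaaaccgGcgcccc
Cyp2j9: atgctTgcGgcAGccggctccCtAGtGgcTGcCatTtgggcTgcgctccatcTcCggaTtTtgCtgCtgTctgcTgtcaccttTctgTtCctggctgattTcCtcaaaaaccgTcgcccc
Cyp2b9 (chr7:26173434-26173553, + strand) and Cyp2b10 (chr7:25897685-25897804, + strand) differed at 24 of the first 120 bases and were 86.2% identical.
Cyp2b9: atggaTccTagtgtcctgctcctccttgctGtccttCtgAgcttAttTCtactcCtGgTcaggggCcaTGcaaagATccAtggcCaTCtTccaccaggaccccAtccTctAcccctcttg
Cyp2b10: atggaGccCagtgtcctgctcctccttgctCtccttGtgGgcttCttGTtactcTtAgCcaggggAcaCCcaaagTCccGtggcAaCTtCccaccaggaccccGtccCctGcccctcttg

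The copies of Cyp2a4 and Cyp2a5 extended upstream. RefSeq promoter windows on GRCm38.p6 were found for 35 of the 40 members. The 210 bases from 250 to 41 before the RefSeq start of Cyp2a4 (chr7:26306942-26307151) and of Cyp2a5 (chr7:26835089-26835298) were 97.2% identical, with 5 bases in each lacking an identical partner, in capitals.
Cyp2a4 upstream: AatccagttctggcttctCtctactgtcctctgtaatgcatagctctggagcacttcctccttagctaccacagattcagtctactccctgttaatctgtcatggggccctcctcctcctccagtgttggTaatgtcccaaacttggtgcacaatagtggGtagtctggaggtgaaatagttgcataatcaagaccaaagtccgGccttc
Cyp2a5 upstream: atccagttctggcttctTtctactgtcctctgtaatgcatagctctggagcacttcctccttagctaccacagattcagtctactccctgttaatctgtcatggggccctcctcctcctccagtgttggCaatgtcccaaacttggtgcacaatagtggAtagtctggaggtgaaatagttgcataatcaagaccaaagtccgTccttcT

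How much of each transcript could be assigned to its own gene was measured as the share of 50-base stretches found in no other gene's transcript. The median over the members was 91.8%, and 22 of 40 members were over 90%. Cyp2c40 (39.7%), Cyp2c69 (45.7%) and Cyp2c67 (47.2%) were under 50%, so that their counts are the least certain. Cyp2a4 stood at 62.0% and Cyp2a5 at 63.0%, and 36.1% of the stretches of Cyp2a4 were also found in Cyp2a5. In contrast, Cyp2j6 (99.6%), Cyp2j9 (100%) and Cyp2e1 (96.1%) were almost wholly their own, as were Cyp3a11 (93.3%) and Cyp2b10 (91.3%), with Cyp2b9 at 88.8%. The length of the reads and the strand setting of the counting are not given in the sources used here, and exons of Cyp2a4, Cyp2f2, Cyp2s1, Cyp2u1 and Cyp2c55 overlap a gene on the other strand.

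Per exon length, Cyp2e1 was the most abundant member, at a mean over all 40 mice of 2667 reads per kilobase of exon, scaled to library size (RPKM). It oxidises ethanol, acetone and paracetamol. Cyp2d26 followed at 676 RPKM and Cyp2f2, the enzyme that activates naphthalene, at 563 RPKM. Cyp2d10 (293 RPKM), Cyp2d9 (257 RPKM), Cyp2c29 (239 RPKM), Cyp1a2 (238 RPKM) and Cyp2j5 (204 RPKM) came next. Within 3a, Cyp3a25 (63.2 RPKM) and Cyp3a11 (62.6 RPKM) stood at nearly the same level per exon length. The summed exon length was 5093 bases for Cyp3a11 and 2083 bases for Cyp3a25. Without division by length, Cyp3a11 was higher, at a mean over all 40 mice of 319 CPM against 131.5 CPM. How these genes compare thus depends on the length used. Cyp2a5 averaged 110 RPKM against 5.61 RPKM for Cyp2a4, Cyp2b9 reached 17.6 RPKM, and Cyp2j6 reached 15.8 RPKM against 3.18 RPKM for Cyp2j9. Cyp2d12 was the lowest member, at 0.131 RPKM. All values below are CPM after TMM scaling, which serves to compare mice within a gene. The 5 values of a group are in order of mouse number, 831 to 835 for WT control, 841 to 845 for WT Pio, 826 to 830 for WT HFD and 836 to 840 for WT HFD-Pio mice, and 1 to 5, 11 to 15, 6 to 10 and 16 to 20 for the KO groups in the same order.

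Libraries held 15788242 to 49857017 counted reads in WT mice and 21542958 to 28334251 in KO mice, of which the members took 0.851 to 2.16% and 0.302 to 1.95%. The hepatocyte marker genes summed to 79372 to 161655 CPM in the WT mice and 94049 to 138771 CPM in 19 of 20 KO mice, but to 37118 CPM in KO Pio mouse 13, in which the members were the lowest of the 5 mice for 28 of 40. KO HFD mouse 9 was lowest for 35 of 40 members and WT control mouse 832 for 27 of 40, where these mice were lowest for 39.9% and 34.2% of all genes and KO Pio mouse 13 for 47.1%. Mouse 9 also had the highest sum of Kupffer cell markers among the KO HFD mice (908 against 415 to 502 CPM) and mouse 832 the highest sum of stellate cell markers among the WT control mice (650.2 against 199 to 237 CPM). Whole-gene counts of Pparg, the targeted gene, ran from 5.79 to 14.2 CPM in WT and from 3.01 to 9.90 CPM in KO mice, and these counts include exons that the deletion leaves. Since whole liver was sequenced, fewer cells of a type and less RNA per cell cannot be told apart.

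**Figure D1:**
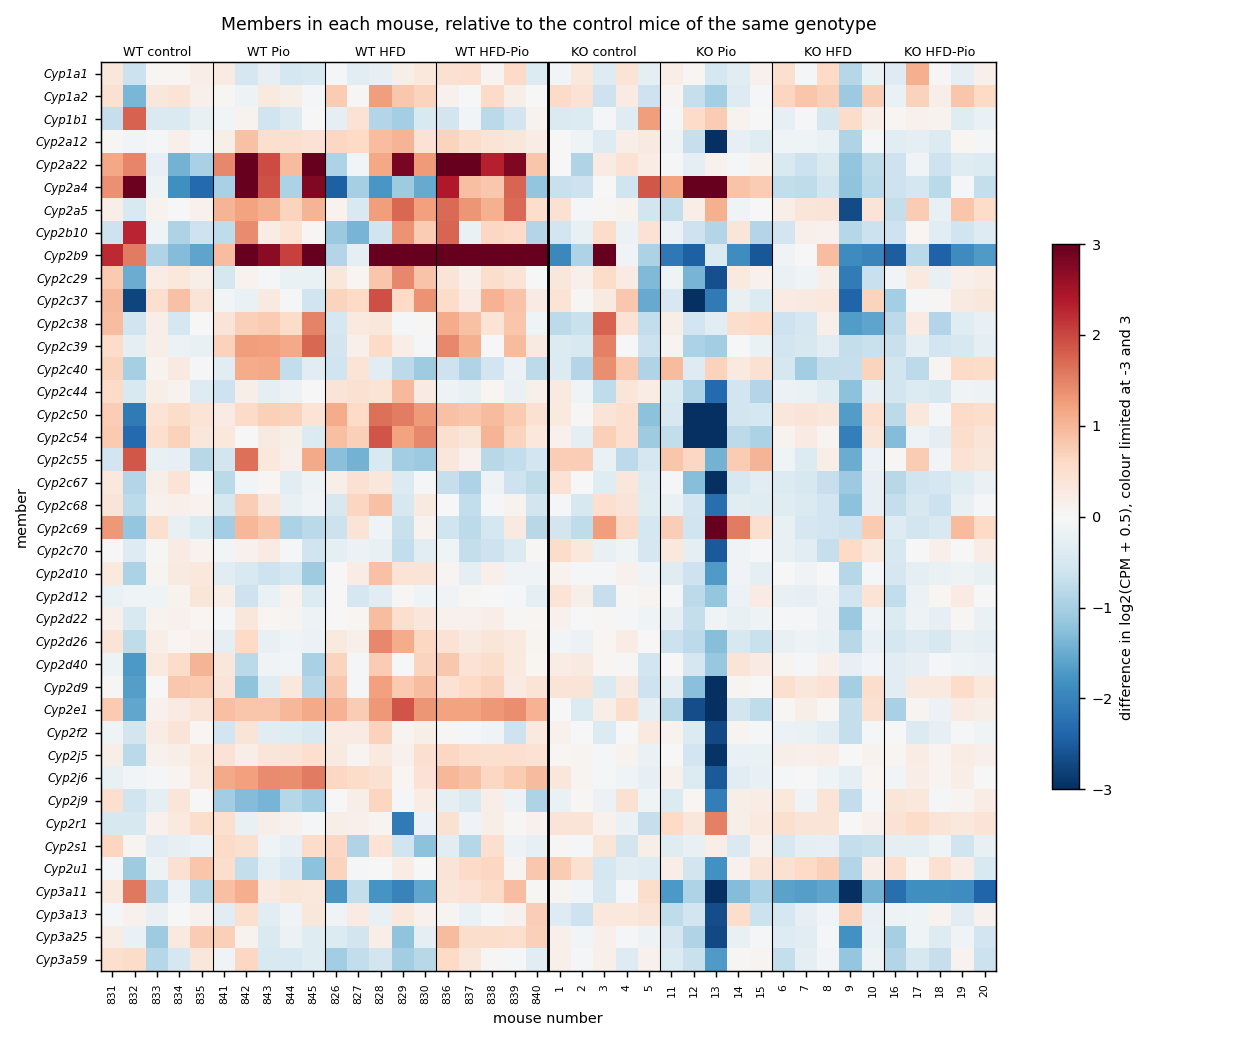
Heat map of the 40 members (rows) in the 40 mice (columns), as log2(CPM + 0.5) minus the mean of the control mice of the same genotype, with colours limited at −3 and 3. KO Pio mouse 13 and KO HFD mouse 9 are low across most rows, and the Cyp2a4 and Cyp2b9 rows vary most between mice of 1 group.

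Pio on the control diet changed few members in WT livers, and members of one subfamily went both ways. Cyp2j6 rose 2.57-fold while its neighbour Cyp2j9 fell, Cyp2a22 and Cyp2c39 rose, and the other 36 members did not pass the test. A gene was called at a Benjamini-Hochberg adjusted p of at most 0.05 in edgeR's quasi-likelihood test over all 12942 genes. That made 4 of 40 members called, where 3.91% of all genes were called. The median log2 fold change of the members was −0.06 and that of all genes −0.02. The 5 Pio mice and the 5 control mice did not overlap for 6 members (5 higher, 1 lower), as for 7.53% of all genes.

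The 2j subfamily makes epoxides and hydroxy acids from arachidonic acid. Cyp2j6 (chr4:96516138-96553661, − strand) stood at 24.4, 26.8, 27.1, 30.2 and 35.01 CPM in the WT control mice and at 63.3, 67.6, 77.3, 76.3 and 84.6 CPM in the WT Pio mice. All 5 Pio mice were higher than any control mouse, with means of 73.8 ± 8.43 against 28.7 ± 4.07 CPM (SD, n = 5; log2 fold change 1.36, SE 0.23, adjusted p = 0.000302; two-sided exact permutation p = 0.00794, the smallest possible with 5 against 5). The call was kept in each of the 40 fits that left out 1 mouse, with a log2 fold change of 1.30 to 1.44. Cyp2j9 (chr4:96568429-96591578, − strand), which lies beside it, was at 20.3, 9.24, 11.5, 18.3 and 14.2 CPM in control and 6.65, 5.42, 5.07, 7.54 and 6.55 CPM in Pio mice. Its Pio mice were all lower than any control mouse (6.25 ± 0.999 against 14.7 ± 4.61 CPM, SD, n = 5; log2 fold change -1.24, SE 0.29, adjusted p = 0.0108), and this call too was kept in all 40 fits. Cyp2j5, by level the main member of the subfamily, was at 356, 180.1, 345, 353 and 393 CPM in control and 427, 358, 403, 413 and 444 CPM in Pio mice, which overlapped (log2 fold change 0.33, SE 0.25, adjusted p = 0.538). Summed over its 3 members, the subfamily averaged 489 CPM under Pio and 369 CPM in control mice, a ratio of 1.33, and most of that sum was Cyp2j5. The lowest control sum was that of mouse 832, at 216 CPM against a control median of 401 CPM. With the raw scaling by library size the Pio sum was 451 CPM.

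**Figure D2:**
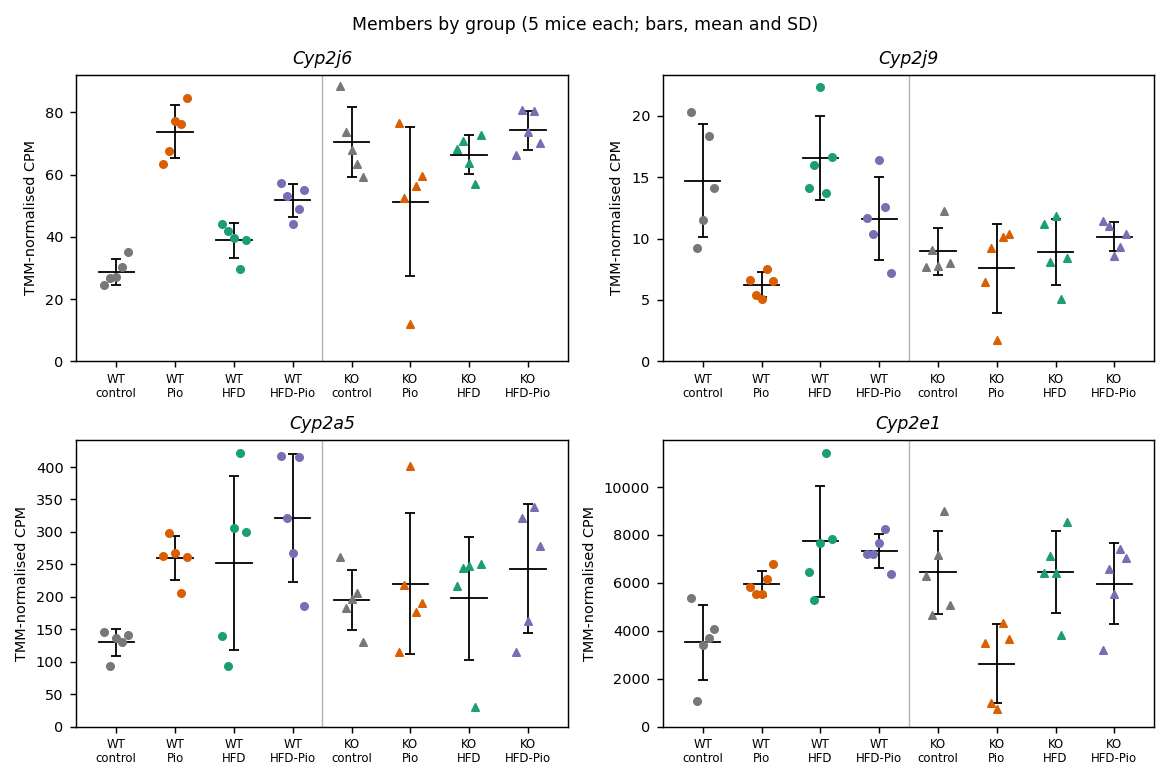
CPM of Cyp2j6, Cyp2j9, Cyp2a5 and Cyp2e1 on linear axes in the 8 groups, with a point for each mouse and bars for the mean ± SD (n = 5). In WT mice, Cyp2j6 is higher and Cyp2j9 lower in every Pio mouse than in any control mouse.

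Cyp2a genes encode hydroxylases of coumarin and testosterone. Cyp2a22 (chr7:26931631-26939384, − strand) rose under Pio from 4.32, 5.48, 1.33, 0.305 and 0.593 CPM in control to 5.36, 24.0, 7.82, 3.67 and 19.2 CPM in Pio mice (log2 fold change 2.32, SE 0.65, adjusted p = 0.0332), with the lowest Pio mice inside the range of the controls. This call was lost in 5 of the 40 fits that left out a mouse, and the gene had at least 1 CPM in 18 of 40 mice. Its near copy was Cyp2a12, at 97.0% identity over the coding sequence. Of the 50-base stretches of Cyp2a22, 79.8% were its own and 20.2% were also found in Cyp2a12, which stood at 282 CPM or more in these mice. The part of that in the Cyp2a22 counts was not tested. Cyp2a5 (chr7:26835305-26843548, + strand), the coumarin hydroxylase, was at 146, 93.9, 137, 129.9 and 141 CPM in control and 262, 299, 268, 205 and 262 CPM in Pio mice. Although no Pio mouse reached down to a control mouse, with means of 259 ± 33.7 against 129.7 ± 20.8 CPM, the difference did not pass the test over all genes (log2 fold change 1.00, SE 0.39, adjusted p = 0.147). The same held for Cyp2a12 (340.2 to 549 against 282 to 333 CPM; log2 fold change 0.50, SE 0.26, adjusted p = 0.313). Cyp2a4, the near copy of Cyp2a5 that hydroxylates testosterone, ran from 0.198 to 26.1 CPM among control and from 1.29 to 184 CPM among Pio mice, so that 1 mouse, WT Pio mouse 842, set the group mean (log2 fold change 2.55, SE 1.06, adjusted p = 0.182). Over all 4 genes, the 2a level was 741.9 CPM under Pio and 440.5 CPM in control mice, a ratio of 1.68, and the groups did not overlap. This sum does not depend on which copy a counted read was assigned to, but reads that matched more than 1 copy are missing from it.

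Cyp2c39 (chr19:39510862-39568529, + strand), a retinoic acid hydroxylase, was the remaining call. It lay at 1.93, 0.857, 1.39, 0.970 and 0.922 CPM in control and 2.19, 3.46, 3.45, 3.18 and 5.05 CPM in Pio mice, all of the latter higher (log2 fold change 1.51, SE 0.42, adjusted p = 0.0312), and 88.0% of its stretches were its own. The call was lost in 6 of 40 fits without 1 mouse, among them the fit without WT control mouse 832 (log2 fold change 1.43, adjusted p = 0.0693). The more abundant 2c genes did not follow it. Cyp2c29, which responds to CAR ligands, was at 914, 189, 618, 668 and 597 CPM in control and 368, 572, 522, 461 and 464 CPM in Pio mice (log2 fold change -0.32, SE 0.39, adjusted p = 0.736), and the 2c sum over 13 genes had a ratio of 0.927. The 2c sums of the control mice ran from 787 to 2535 CPM. Cyp2c55 ran from 2.55 to 13.6 CPM under Pio and from 2.04 to 15.9 CPM in control mice, the highest of which was mouse 832 (log2 fold change 0.37, SE 0.52, adjusted p = 0.782).

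Cyp2e1 (chr7:140763739-140774987, + strand) was at 5359.7, 1052, 3419.5, 3699.8 and 4073 CPM in WT control and 5814, 5545, 5547, 6159 and 6787 CPM in WT Pio mice. The Pio mice were all higher, but the test was not passed (log2 fold change 0.76, SE 0.35, adjusted p = 0.242), and the lowest control value was again that of mouse 832, without which the log2 fold change was 0.55. Among 2d genes, which oxidise steroids and many drugs, Cyp2d10 ran from 273 to 462 CPM under Pio and 297 to 720.1 CPM in control mice (log2 fold change -0.64, SE 0.22, adjusted p = 0.0914), and without mouse 832 it was called (log2 fold change -0.80). Cyp2d26 lay at 1719, 772, 1518, 1379.8 and 1440.4 CPM in control and 1092, 1985, 1123, 1209 and 1162 CPM in Pio mice (log2 fold change -0.06, SE 0.21, adjusted p = 0.928), with the highest value in mouse 842. Cyp2b9, a testosterone hydroxylase more abundant in female livers, was at 14.5, 8.83, 1.21, 0.804 and 0.560 CPM in control and 5.57, 63.7, 20.2, 12.8 and 34.3 CPM in Pio mice (log2 fold change 2.39, SE 1.10, adjusted p = 0.237), groups that overlapped. Cyp2b10, the CAR target, ranged from 0.277 to 6.63 CPM in these mice and was highest in mouse 832.

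In the same WT livers the adipocyte marker list was higher with Pio, with sums of 125 to 563 CPM in Pio and 122 to 637 CPM in HFD-Pio mice, against 9.54 to 22.3 CPM in control and 17.4 to 64.5 CPM in HFD mice. Cidea, Cfd and Retn, 3 of the 4 tested genes of the list of 7, were called. Of all genes, 3.91% were called under Pio on the control diet and 1.08% on the HFD. Adipoq and Plin1, which define adipocytes, were at or under 0.131 CPM in every WT mouse.

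Under Pio in WT mice on the HFD, Cyp3a11 (chr5:145854426-145879964, − strand) rose 3.94-fold. It was the only member called, 1 of 40 (all genes 1.08%) and 1 of 4 in the 3a subfamily, whose enzymes hydroxylate steroids, bile acids and many drugs. The HFD mice were at 117, 243, 117, 98.2 and 135 CPM and the HFD-Pio mice at 507, 533, 593, 754 and 406 CPM. Every HFD-Pio mouse was higher than any HFD mouse (559 ± 128 against 142 ± 57.8 CPM, SD, n = 5; log2 fold change 1.98, SE 0.51, adjusted p = 0.0463; two-sided exact permutation p = 0.00794, the smallest possible). The adjusted p lay close to the threshold and was above it in 27 of the 40 fits without 1 mouse, in which the log2 fold change ran from 1.86 to 2.27 and the adjusted p reached 0.133. Cyp3a25 was at 68.8, 62.3, 106, 39.0 and 76.3 CPM in HFD and 176, 131, 131, 129.6 and 152 CPM in HFD-Pio mice, without overlap but not called (log2 fold change 1.03, SE 0.34, adjusted p = 0.117). Cyp3a59, which shares most of its sequence with Cyp3a25 (97.5% identical), was likewise separated at a low level (2.06 to 4.37 against 1.05 to 1.70 CPM; log2 fold change 1.25, SE 0.35, adjusted p = 0.0668). Cyp3a13 overlapped between the groups (101 to 195 and 100.1 to 147 CPM; log2 fold change 0.09, SE 0.30, adjusted p = 0.925). The 3a sum was 838 CPM in HFD-Pio and 338 CPM in HFD mice, a ratio of 2.48, without overlap.

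Outside 3a, 1 further member did not overlap between WT HFD and HFD-Pio mice, namely Cyp2c44, an epoxygenase of arachidonic acid, which was lower with Pio (252 to 326 against 349 to 574 CPM; log2 fold change -0.58, SE 0.25, adjusted p = 0.244). That made 4 of 40 members without overlap, as for 7.12% of all genes. Cyp2j6, called on the control diet, was at 44.3, 42.0, 39.5, 29.7 and 38.8 CPM in HFD and 57.3, 53.0, 44.1, 49.0 and 55.1 CPM in HFD-Pio mice (log2 fold change 0.41, SE 0.22, adjusted p = 0.378). Cyp2j9 overlapped (7.17 to 16.4 against 13.7 to 22.3 CPM; log2 fold change -0.51, SE 0.28, adjusted p = 0.381). Cyp2b9 was at 238, 155, 179, 167 and 44.2 CPM in HFD-Pio mice and ran from 1.24 to 194 CPM among the HFD mice (log2 fold change 1.37, SE 1.04, adjusted p = 0.558). Cyp2a4 was at 17.9, 5.98, 5.59, 11.1 and 1.03 CPM in HFD-Pio and 0.138, 1.25, 0.543, 1.16 and 0.720 CPM in HFD mice (log2 fold change 3.46, SE 1.23, adjusted p = 0.153). Fitted without KO Pio mouse 13, which takes no part in this comparison but entered the estimate of the spread, 5 members were called (Cyp3a11, Cyp3a59, Cyp3a25, Cyp2j6 and, lower, Cyp2c67), while the share of all genes called rose to 11.6%.

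Whether Pio acted differently on the 2 diets in WT mice was tested as an interaction, in which 0 of 40 members were called by edgeR (all genes 0.0773%), 5 of them had an unadjusted p under 0.05 (all genes 12.1%), and 4 were called by limma (all genes 10.6%) and 0 by DESeq2. For Cyp2j6 the Pio effect on the HFD minus that on the control diet was -0.95 on the log2 scale (95% interval -1.59 to -0.30, adjusted p = 0.188, and 0.000796 to 0.400 over the alternatives). For Cyp3a11 it was 1.66 (95% interval 0.24 to 3.09, adjusted p = 0.324).

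**Figure D3:**
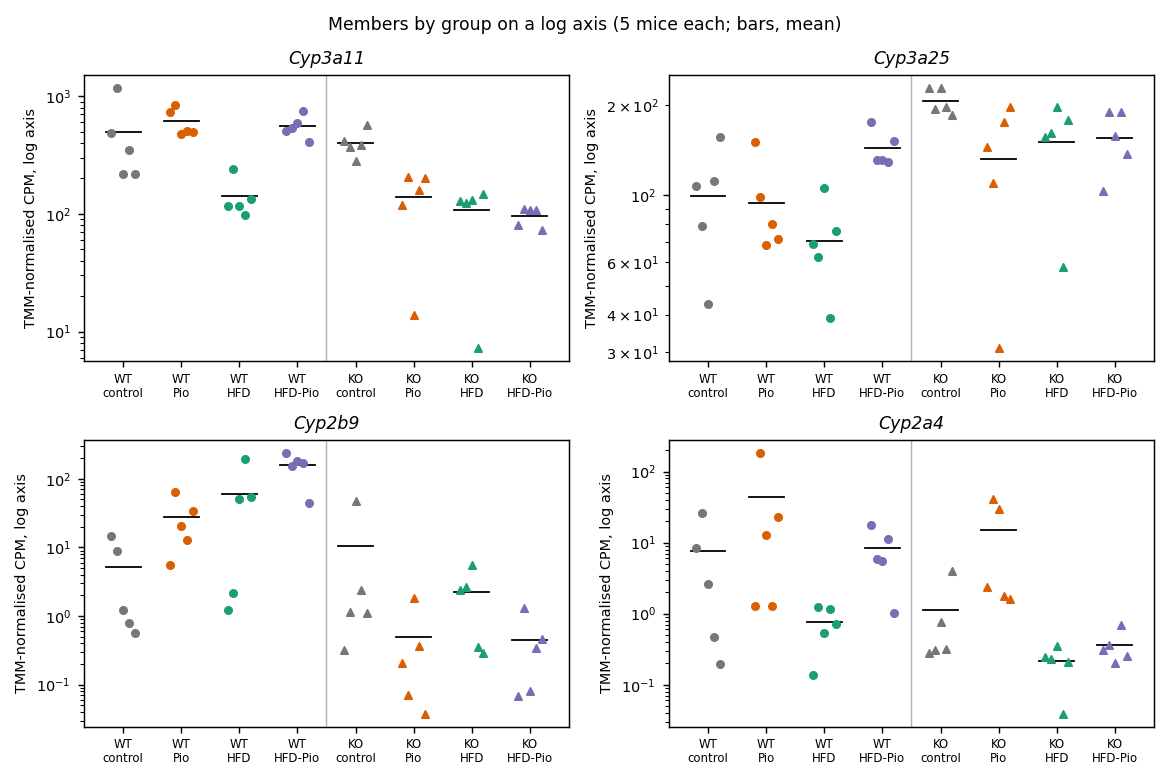
CPM of Cyp3a11, Cyp3a25, Cyp2b9 and Cyp2a4 on log axes in the 8 groups, with a point for each mouse and a bar at the mean. Cyp3a11 is low in the WT HFD mice and in 3 of the 4 KO groups, and Cyp2b9 and Cyp2a4 spread over more than 100 times between mice.

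The HFD without Pio left no member called in WT mice (0 of 40, all genes 1.31%), where 12 members had an unadjusted p under 0.05 in edgeR (all genes 13.2%), and 4 members were called by DESeq2 (all genes 2.98%) and 1 by limma (all genes 2.53%). The median log2 fold change was 0.19 for the members, 25 of 40 above 0, and 0.00 for all genes. Without mouse 832 these medians were 0.09, with 23 of 40 members above 0, and 0.02. Cyp3a11 went the other way, at 98.2 to 243 CPM in HFD against 218 to 1182 CPM in control mice (log2 fold change -1.79, SE 0.51, adjusted p = 0.0657). DESeq2 called it (adjusted p = 0.0115), as did the fit of the WT mice alone (0.0119), but without mouse 832, whose 1182 CPM were the highest of all WT mice, the log2 fold change was -1.18 and the adjusted p 0.426, the highest of all alternatives. Cyp2e1 was at 6449.8, 5273, 7654, 11435 and 7839.9 CPM in HFD mice, of which 4 of 5 were higher than any control mouse (log2 fold change 1.13, SE 0.36, adjusted p = 0.102), and without mouse 832 its log2 fold change was 0.89 (adjusted p = 0.361). Cyp2d26 was at 1624, 1466, 3579, 2834 and 2033 CPM (log2 fold change 0.76, SE 0.21, adjusted p = 0.0578), with WT HFD mouse 828 the highest of all, and without mouse 832 its log2 fold change was 0.60 (adjusted p = 0.246). Cyp2a12 was the only member without overlap, 1 of 40 (all genes 3.05%), at 404 to 608 CPM in HFD against 282 to 333 CPM in control mice (log2 fold change 0.74, SE 0.26, adjusted p = 0.161). Cyp2b9 ran from 1.24 to 194 CPM in HFD mice, with the highest value in mouse 829 (log2 fold change 3.54, SE 1.15, adjusted p = 0.115).

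By subfamily, the HFD to control ratio of summed CPM in WT mice was 1.72 for 2a, without overlap, 1.51 for 2d, 1.44 for 2c, 1.17 for 2j, 0.475 for 3a and 8.92 for 2b, with overlap in all but 2a. The 2b ratio rested on WT HFD mouse 829 (197 CPM) and was 4.02 without it. The other ratios include WT control mouse 832. Its sum was the lowest of the controls for 2d (1508 CPM, control median 3417 CPM) and 2j (216 CPM, median 401 CPM). For 3a it was the highest (1394 CPM, median 579 CPM). The 2c sums of the control mice ran from 787 to 2535 CPM. Fitted without KO Pio mouse 13, 7 members were called, with Cyp3a11, Cyp3a59 and Cyp2c55 lower and Cyp2a12, Cyp2d26, Cyp2e1 and Cyp2j6 higher on the HFD, among 6.56% of all genes.

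With Pio in both diets, 0 of 40 members were called in WT mice between HFD and control diet by edgeR (all genes 1.22%), with 10 members at an unadjusted p under 0.05 (all genes 14.2%), 9 called by limma (all genes 22.7%) and 0 by DESeq2 (all genes 3.01%). Cyp2j6 was lower in every HFD-Pio mouse than in any Pio mouse (log2 fold change -0.51, SE 0.22, adjusted p = 0.272), and Cyp2c54 (log2 fold change 0.51, SE 0.48, adjusted p = 0.694) and Cyp2d10 (log2 fold change 0.53, SE 0.22, adjusted p = 0.242) were higher without overlap, which made 3 of 40 (all genes 6.49%). Cyp3a11 with Pio averaged 559 ± 128 CPM on the HFD and 611 ± 167 CPM on the control diet (SD, n = 5), with a log2 fold change of -0.13 and a 95% interval of -1.13 to 0.87.

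In KO livers under Pio on the control diet, Cyp2e1, Cyp2d26, Cyp2c44, Cyp2c54 and Cyp2b9 fell and Cyp2a4 rose, 6 of 40 members (all genes 9.01%). The 4 members called in WT mice were not among them. The median log2 fold change was −0.49 for the members against 0.03 for all genes, and 33 of 40 members were below 0. Without KO Pio mouse 13 the medians were −0.30, with 30 of 40 members below 0, and 0.01. The 6 calls depended on single mice, since all 6 were lost when KO Pio mouse 13, KO control mouse 1 or KO control mouse 4 was left out, and without mouse 13 the share of all genes called was 0.510%. Mouse 13 was the lowest KO Pio mouse for most members, and its hepatocyte marker sum was 37118 CPM against 102562 to 138771 CPM in the other KO Pio mice.

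Cyp2e1 was at 6285, 4675, 7181, 8982 and 5081 CPM in KO control and 3473, 982, 714, 4303 and 3667 CPM in KO Pio mice, mouse 13 being the third. Every Pio mouse was lower than any control mouse (2628 ± 1656 against 6441 ± 1732 CPM, SD, n = 5; log2 fold change -1.29, SE 0.36, adjusted p = 0.0264). Without mouse 13 the log2 fold change was -1.03 and the adjusted p 0.154. Cyp2d26 (chr15:82790101-82794294, − strand) was at 910.4, 856, 1001, 1122 and 961 CPM in control and 621, 561, 398, 697 and 609 CPM in Pio mice, again without overlap (log2 fold change -0.75, SE 0.21, adjusted p = 0.0279). It was the only member still called when the KO mice were fitted alone without mouse 13 (log2 fold change -0.63, adjusted p = 0.0170, all genes called 2.23%), a fit added after the data were seen, while the fit of all groups without that mouse gave an adjusted p of 0.179. Over the fits without 1 mouse its log2 fold change lay between -0.83 and -0.62. Cyp3a11 was the third member without overlap (3 of 40, all genes 3.7%), at 414, 372, 283, 381 and 565 CPM in control and 119.6, 205, 13.9, 160.2 and 203 CPM in Pio mice, with an adjusted p just above the threshold (log2 fold change -1.52, SE 0.50, adjusted p = 0.0507; 0.00655 to 0.279 over the alternatives).

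Cyp2c44 was at 516, 398, 252, 549 and 494 CPM in KO control and 316, 223, 84.9, 287 and 230.2 CPM in KO Pio mice (log2 fold change -0.95, SE 0.25, adjusted p = 0.0217). Without mouse 13 its log2 fold change was -0.72 (adjusted p = 0.112), and it lay between -1.09 and -0.72 over the fits without 1 mouse. Cyp2c54 (chr19:40037940-40073827, − strand), a CAR-responsive gene, was at 152, 115, 232, 199 and 66.8 CPM in control and 83.3, 14.3, 8.11, 80.5 and 72.7 CPM in Pio mice (log2 fold change -1.56, SE 0.49, adjusted p = 0.0418), with mice 12 and 13 far lower than the other Pio mice, and its log2 fold change without mouse 13 was -1.27 (adjusted p = 0.258), within -1.80 to -1.27 over the fits without 1 mouse. Cyp2b9 (chr7:26173411-26210661, + strand) was at 0.317, 1.14, 48.1, 2.40 and 1.12 CPM in control and 0.206, 0.0718, 1.82, 0.365 and 0.0380 CPM in Pio mice (log2 fold change -4.38, SE 1.31, adjusted p = 0.0353). That call rested on KO control mouse 3, the third control value, without which the log2 fold change was -1.26 and no longer called, while without mouse 13 it was -5.94 (adjusted p = 0.130). Cyp2a4 was at 0.278, 0.305, 0.759, 0.317 and 4.04 CPM in control and 2.35, 41.2, 29.3, 1.75 and 1.596 CPM in Pio mice (log2 fold change 3.70, SE 1.16, adjusted p = 0.0412), so that mice 12 and 13 carried the difference, and without mouse 13 the log2 fold change was 3.34 (adjusted p = 0.250), within 2.90 to 5.19 over the fits without 1 mouse. Its near copy Cyp2a5 was at 261, 183, 196, 206 and 131 CPM in control and 115, 217, 402, 176 and 191 CPM in Pio mice, with its highest value also in mouse 13 (log2 fold change 0.17, SE 0.38, adjusted p = 0.790). Cyp2j6 and Cyp2j9, the WT calls, had log2 fold changes of -0.46 (adjusted p = 0.177) and -0.24 (adjusted p = 0.597).

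On the HFD, Pio had no called effect on any of the 40 members in KO mice by edgeR (all genes 0.0155%), limma (all genes 0%) or DESeq2 (all genes 0.0633%). No member had an unadjusted p under 0.05 in edgeR (all genes 1.04%), and for 0 of 40 the mice did not overlap (all genes 0.61%). Cyp3a11, called in WT mice in this comparison, was at 129, 124, 131, 7.24 and 147 CPM in KO HFD and 81.3, 109, 109, 108 and 73.5 CPM in KO HFD-Pio mice, with a log2 fold change of -0.17 (95% interval -1.17 to 0.84). The value 7.24 CPM came from KO HFD mouse 9.

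The HFD without Pio left 0 of 40 members called in KO mice by edgeR (all genes 0.185%), with 4 members at an unadjusted p under 0.05 (all genes 4.60%), 2 called by limma (all genes 4.19%) and 1 by DESeq2 (all genes 0.419%). Cyp3a11 was lower in every KO HFD mouse than in any KO control mouse, the only member without overlap (1 of 40, all genes 3.04%), at 108 ± 56.9 against 403 ± 103 CPM (SD, n = 5; log2 fold change -1.90, SE 0.51, adjusted p = 0.175; 8.83e-05 to 0.767 over the alternatives). Without mouse 9 the adjusted p was 0.413 and without mouse 13 it was 0.0391. The 3a sum was 448 CPM on the HFD and 810.5 CPM on the control diet, a ratio of 0.553, without overlap.

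Between the 2 diets with Pio, Cyp2a4 fell and Cyp2e1 rose in KO mice, 2 of 40 (all genes 4.96%). Cyp2a4 was at 0.309, 0.363, 0.202, 0.687 and 0.253 CPM in HFD-Pio mice, all lower than the Pio mice (log2 fold change -5.38, SE 1.31, adjusted p = 0.0351), and Cyp2e1 was at 3196, 6579.6, 5543, 7409 and 7046 CPM (log2 fold change 1.18, SE 0.36, adjusted p = 0.0476). Neither was called without KO Pio mouse 13 (log2 fold changes -5.02 and 0.94). Cyp2j5 was higher without overlap but not called (log2 fold change 0.64, SE 0.25, adjusted p = 0.106), which with Cyp2a4 made 2 of 40 (all genes 2.43%), and the 2j sum had a ratio of 1.54. That ratio includes mouse 13, whose 2j sum was 88.0 CPM against a KO Pio median of 569 CPM. Whether the Pio effect differed between diets in KO mice was tested too. There, 0 of 40 members were called by edgeR (all genes 0%), limma (all genes 0.402%) or DESeq2 (all genes 0%). In edgeR, 4 members had an unadjusted p under 0.05 (all genes 12.1%).

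**Figure D4:**
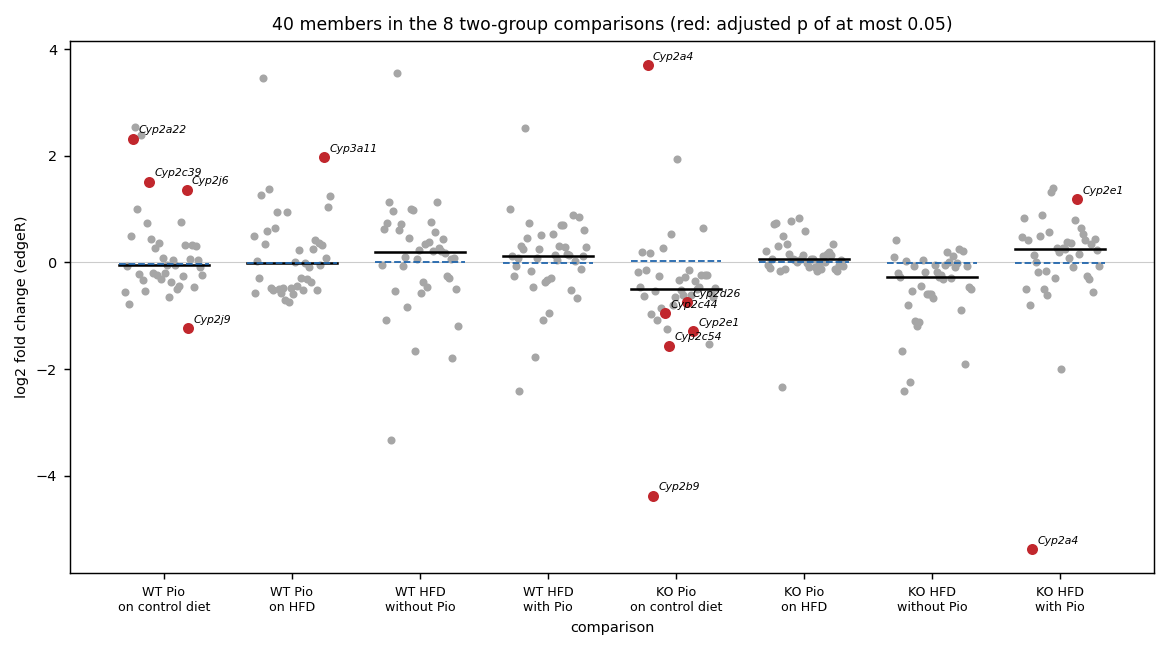
Log2 fold changes of the 40 members in the 8 comparisons of 2 groups, each point a member and called members in red, with the member median as a black line and the median of all genes as a dashed blue line. The member median lies at −0.49 for Pio on the control diet in KO mice and between −0.27 and 0.24 elsewhere.

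The Pio effect on the control diet differed between genotypes for Cyp2j6, Cyp2e1, Cyp2c39 and Cyp2b9, all with a lower effect in KO mice, 4 of 40 members (all genes 7.87%). For Cyp2j6 the KO effect minus the WT effect was -1.82 on the log2 scale (SE 0.32, adjusted p = 0.00113), and it was called in all 40 fits without 1 mouse (-2.003 to -1.557). Its KO control mice were at 88.4, 73.7, 68.0, 63.4 and 59.1 CPM and its KO Pio mice at 76.6, 52.4, 11.8, 56.3 and 59.5 CPM. Cyp2e1 gave -2.06 (SE 0.50, adjusted p = 0.0131), also in all 40 fits (-2.31 to -1.81), and the value without mouse 13 was -1.81. Cyp2c39 gave -2.37 (SE 0.60, adjusted p = 0.0159) and Cyp2b9 -6.77 (SE 1.72, adjusted p = 0.0164). Both calls were lost without KO control mouse 3, the highest KO control mouse for both genes, at -1.49 (adjusted p = 0.0683) and -3.66 (adjusted p = 0.134). Cyp2j9 gave 1.00 and did not pass (adjusted p = 0.104), but was called without mouse 13 (1.26).

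The genotypes' other effects did not differ by a called amount for any member in edgeR. The Pio effect on the HFD gave 0 of 40 (all genes 0.0927%), with 4 members at an unadjusted p under 0.05 (all genes 5.93%), 2 called by limma (all genes 2.74%) and 0 by DESeq2. For Cyp3a11 that difference was -2.14 (95% interval -3.57 to -0.71, adjusted p = 0.559; 0.00188 to 0.885 over the alternatives). The HFD effect without Pio gave 0 of 40 (all genes 0.0618%), with 9 at an unadjusted p under 0.05 (all genes 9.43%), 2 called by limma (all genes 1.43%) and 2 by DESeq2 (all genes 0.720%). That with Pio gave 0 of 40 (all genes 0.0155%), with 1 at an unadjusted p under 0.05 (all genes 19.3%), 3 called by limma (all genes 7.53%) and 0 by DESeq2. The HFD effect on Cyp3a11, not called in either genotype, differed between them by -0.11 (95% interval -1.52 to 1.31).

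**Figure D5:**
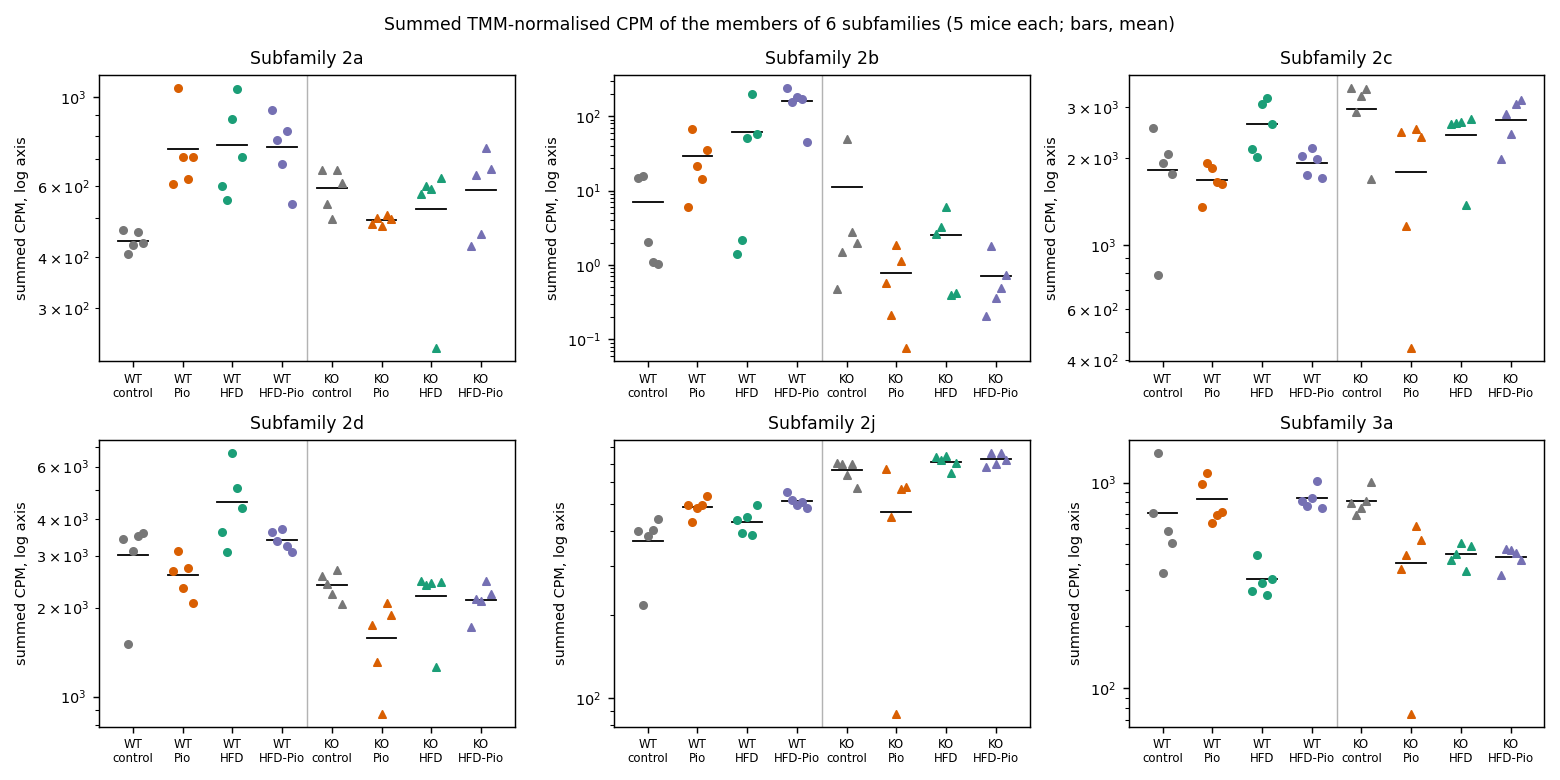
Summed CPM of the members of subfamilies 2a, 2b, 2c, 2d, 2j and 3a on log axes, with a point for each mouse in the 8 groups. The 3a sum lies between 285 and 445 CPM in WT HFD mice and between 754 and 1014 CPM in WT HFD-Pio mice, and the 2b sum is under 7 CPM in every KO mouse but mouse 3 of the control group.

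The sums over subfamilies are descriptions without a test. In KO mice under Pio on the control diet the ratio to control was 0.503 for 3a, without overlap, 0.604 for 2c, 0.663 for 2d, 0.711 for 2j and 0.832 for 2a. These ratios include KO Pio mouse 13. Its sums were the lowest of its group for 3a (75.3 CPM, group median 446 CPM), 2d (877 CPM, median 1754 CPM) and 2j (88.0 CPM, median 569 CPM). The 2c sums of the KO Pio mice ran from 440 to 2529 CPM. The 2b ratio of 0.0694 came from mouse 3 of the control group, whose sum was 49.0 CPM, and was 0.463 without it. In WT mice the 2b sum averaged 6.92 CPM in control, 28.8 CPM in Pio, 61.7 CPM in HFD and 158.6 CPM in HFD-Pio mice, with SDs of 7.59, 24.0, 80.1 and 71.8 CPM (n = 5). Cyp2b9 was most of the Pio, HFD and HFD-Pio means, as Cyp2b10 did not exceed 6.63 CPM in any WT mouse. In control mice Cyp2b10 could be a larger part, at 6.63 of 15.5 CPM in mouse 832.

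The family 1 genes, the targets of the aryl hydrocarbon receptor, were not called in any comparison. Cyp1a2, which oxidises caffeine and arylamines, was at 547, 154, 509, 533 and 444 CPM in WT control, 408, 357, 491, 448 and 384 CPM in WT Pio and 681, 406, 953, 703 and 639 CPM in WT HFD mice, and ran from 186 to 705 CPM in KO mice. Cyp1a1 ranged from 0.157 to 2.02 CPM and Cyp1b1 from 0.203 to 4.36 CPM, with the highest Cyp1b1 value in mouse 832. Of the single-gene subfamilies, Cyp2f2 was at 830.3 to 2070.1 CPM in WT and 167 to 1358 CPM in KO mice, the lowest being mouse 13. Cyp2r1, a vitamin D hydroxylase, was at 1.06 to 9.29 CPM in WT and 6.06 to 29.6 CPM in KO mice, and here mouse 13 was the highest. Cyp2u1, a fatty acid hydroxylase, was at 8.32 to 36.0 CPM in WT and 6.40 to 40.4 CPM in KO mice, and Cyp2s1 stayed at or under 2.01 CPM in every mouse. Among the genes left out for low counts, Cyp2b23 had 0 reads in every mouse. Cyp2b13, more abundant in female livers and 92.7% identical to Cyp2b9, was at 1.84, 1.49, 2.10, 0.647 and 0.301 CPM in WT HFD-Pio and 0.0917, 0, 0.408, 1.06 and 0.360 CPM in WT HFD mice, and it had reads in 1 of 20 KO mice.

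Members were also grouped by their known control, sex difference or zone. Of 8 members known as CAR or PXR targets, Cyp3a11 was called higher under Pio on the HFD in WT mice (all genes called 1.08%). Cyp2c54 was called lower under Pio on the control diet in KO mice (all genes called 9.01%). The list medians were −0.19 and −1.03 (−0.77 in KO mice without mouse 13). Of 8 members made around the central vein, Cyp2e1 and Cyp2c54 fell in KO mice under Pio on the control diet (median −1.16, all genes called 9.01%). Without mouse 13 neither was called and the median was −0.91. KO Pio mouse 12 stayed in that fit, with Cyp2e1 at 982 CPM against 3473, 4303 and 3667 CPM in mice 11, 14 and 15. In WT mice under Pio on the control diet 0 of 8 were called (all genes 3.91%). Of 4 tested members more abundant in females, Cyp2b9 fell and Cyp2a4 rose in KO mice under Pio on the control diet (all genes called 9.01%). The list thus split, and neither gene was called without mouse 13. The 3 targets of the aryl hydrocarbon receptor, the 2 members more abundant in males (Cyp2d9, Cyp2u1) and the periportal Cyp2f2 had 0 calls in each of the 14 comparisons. Cyp2d9 was at 585, 182, 575, 1007 and 985 CPM in WT control, 742, 248, 441, 713 and 317 CPM in WT Pio, 804, 800.0, 457, 747 and 402 CPM in KO control and 507, 257, 72.8, 656 and 606 CPM in KO Pio mice.

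Among 21 tested receptors and regulators of these genes, Nr1i3, which encodes CAR, rose with the HFD in WT mice (log2 fold change 1.95, adjusted p = 0.00604) and fell under Pio in KO mice on the control diet (-1.17, adjusted p = 0.0486), and its Pio effect differed between genotypes (-2.08, adjusted p = 0.0191). Mouse 832 had the lowest Nr1i3 of the WT control mice (18.0 CPM, group mean 47.3 CPM), and the HFD call and the genotype difference include it. Hlf, a circadian transcription factor, rose under Pio (1.06, adjusted p = 0.0307) and on the HFD (1.14, adjusted p = 0.0353) in WT mice, and both calls were lost without mouse 832 (adjusted p = 0.0760 and 0.150). In KO mice under Pio, Cebpa was highest in mouse 13, at 3604 CPM against a control mean of 311 CPM, and its log2 fold change was 1.62 with and -0.05 without that mouse. Nr0b2 was also highest in mouse 13 (190.1 CPM). On the control diet 1 of 21 was called under Pio in WT mice (all genes 3.91%), 3 of 21 under Pio in KO mice (all genes 9.01%) and 4 of 21 in the genotype difference of the Pio effect (all genes 7.87%), and 2 of 21 were called on the HFD in WT mice (all genes 1.31%). Without mouse 13, 0 of the 3 KO calls were kept. Of 6 genes for electron donors and heme-binding partners of P450 enzymes, Pgrmc2, which is of the latter kind, rose under Pio in WT (0.95, adjusted p = 0.0236) and in KO mice (1.00, adjusted p = 0.0192). The WT call was lost without mouse 832 (adjusted p = 0.0693) and the KO call without mouse 13 (adjusted p = 0.264), where the sum of the list was 7300 CPM against 2370 to 3399 CPM in its group. The reductase gene Por was not called in any comparison. Of 12 genes of heme synthesis and breakdown, Cpox rose under Pio (0.74, adjusted p = 0.0150) and on the HFD (1.15, adjusted p = 0.000445) in WT mice. Both Cpox calls include mouse 832, in which the sum of the list was the lowest of the WT control mice (1109 CPM, group median 1468 CPM).

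The non-P450 genes that mark the same zones behaved as follows. Of 12 pericentral genes, Oat, ornithine aminotransferase, rose under Pio in WT mice on both diets (1.37, adjusted p = 0.00829 and 1.19, adjusted p = 0.0434) and fell in KO mice on the control diet (-1.08, adjusted p = 0.0289), in which Slc1a2 and Gulo fell too and Tbx3 rose, and 8 had no call. The WT control-diet call includes mouse 832, whose sum of this list was the lowest of the WT control mice (1735 CPM, group median 3251 CPM). Of 12 periportal genes, 0 were called in WT mice under Pio, and Sds rose and Pigr fell in KO mice under Pio on the control diet. Of the other cell types' lists, hemoglobin genes and Alas2 had 1 of 5 called lower under Pio in WT and 2 of 5 higher in KO mice. The Kupffer list had 1 of 8 called, C1qa, in the genotype difference of the Pio effect, and the hepatocyte list 1 of 7, Apob, lower under Pio in KO mice. The sinusoidal endothelium, stellate, lymphocyte and acinar pancreas lists had 0 calls, although KO HFD mouse 10 and KO Pio mouse 13 had acinar sums of 752 and 144 CPM against 1.78 to 28.6 CPM in the other mice. For scale, Pio called 3.91% of all genes in WT mice on the control diet and 1.08% on the HFD. In KO mice on the control diet it called 9.01%. The genotype difference of its effect called 7.87% on the control diet and 0.0927% on the HFD. None of the KO calls of these lists under Pio on the control diet was kept without mouse 13. The part of these other cells in the members' results was not tested.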

How the data were processed

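Livers of 40 mice were measured by poly-A RNA-seq. The authors aligned the reads with STAR version 2.0.4b to GRCm38 with the Ensembl gene models and counted unique, unambiguous reads per gene with Subread featureCounts version 1.4.5, and they deposited raw counts in 1 table per genotype, which is the unit used here. The 40594 genes of both tables were joined (96 were in the WT table only), 355 ribosomal RNA genes were removed, and the 12942 genes that reached 1 CPM in 5 or more mice entered the test. Totals ran from 15788242 to 49857017 counts per mouse, which limits the genes near 1 CPM most.

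Groups were taken from the labels. The test was edgeR version 4.0.16, quasi-likelihood with TMM scaling and robust dispersion, in 1 model of the 8 groups, with 14 comparisons and Benjamini-Hochberg adjustment over all genes. SE and intervals are on the log2 scale, and the 95% intervals are for a single gene, not adjusted over genes. Group means are of TMM-scaled CPM ± SD. The test was first tested on simulated data. Alternatives were limma version 3.58.1 with sample weights (the study's own kind of model), DESeq2 version 1.42.0, DESeq2 size factors in edgeR, no filter, each genotype alone and each mouse left out. Exact permutation tests over mice were two-sided. Nothing states that mice of a group were from separate litters or cages, so p-values measure the spread between these mice.

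The members, lists and tests were chosen with earlier results of these data known. Values by mouse are given for 24 members, namely 13 known as markers of a receptor, sex or zone, the most abundant of each subfamily per exon length, up to 3 called members in each direction per comparison and all called interactions. Others are given by range. RPKM used the summed exon length of GENCODE M21. Coding sequences came from GENCODE M21 and upstream sequences from RefSeq on GRCm38.p6, handled with Biopython version 1.88. Protein sequences were not used here. The medians, list genes and subfamily ratios without 1 mouse were added after the data were seen. A gene of the marker lists is not reported here.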

Additional observations from a re-analysis of the deposited data

Results flagged for a closer look

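The Pio effect on the control diet differed between WT and KO mice for 4 of 40 members (all genes 7.87%), tested as an interaction in edgeR with adjustment over all genes. The KO effect minus the WT effect was -1.82 for Cyp2j6, -2.06 for Cyp2e1, -2.37 for Cyp2c39 and -6.77 for Cyp2b9 on the log2 scale. The Cyp2c39 and Cyp2b9 calls were lost without KO control mouse 3, at -1.49 and -3.66.

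Among 24 members in 8 groups, 30 of 192 sets of 5 mice held a mouse whose gap to the nearest other mouse was over 0.71 of the group's range. That is the 95% limit of Dixon's test for 5 values, passed by about 1 in 20 sets of independent, normally distributed values. The CPM were not log-transformed, and the sets shared mice, so that rate cannot be set against the 30 flags. WT control mouse 832 stood apart for Cyp1a2 (154 CPM), Cyp1b1 (4.36 CPM), Cyp2b10 (6.63 CPM), Cyp2c55 (15.9 CPM), Cyp2j5 (180.1 CPM) and Cyp3a11 (1182 CPM). KO HFD mouse 9 stood apart, as the lowest mouse, for Cyp1a2 (186 CPM), Cyp2a5 (29.4 CPM), Cyp2c54 (33.5 CPM), Cyp2d26 (546 CPM), Cyp2d9 (305 CPM), Cyp3a11 (7.24 CPM) and Cyp3a25 (57.8 CPM). Its sum of Kupffer markers was 908 CPM against 415 to 502 CPM, and the part of that in these values was not tested. KO Pio mouse 13 stood apart for Cyp2b9 (1.82 CPM) and Cyp2r1 (29.6 CPM).

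KO control mouse 3 stood apart for Cyp2b9 (48.1 CPM) and Cyp2c39 (4.39 CPM), and KO control mouse 5 for Cyp1b1 (3.14 CPM) and Cyp2a4 (4.04 CPM). WT Pio mouse 842 was far above its group for Cyp2a4 (183.5 CPM), Cyp2d26 (1985 CPM) and Cyp2f2 (1684 CPM), and WT Pio mouse 841 for Cyp1a1 (0.774 CPM). WT HFD mouse 829 stood apart for Cyp2a22 (15.0 CPM), Cyp2b9 (194 CPM) and Cyp2r1 (1.06 CPM), WT HFD mouse 827 for Cyp3a11 (243 CPM) and WT HFD mouse 828 for Cyp2f2 (2070.1 CPM). The remaining values were Cyp1a2 in WT HFD-Pio mouse 838 (596 CPM) and Cyp1a1 in KO HFD-Pio mouse 17 (2.02 CPM).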

How the results depend on the processing

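No call changed direction under the alternatives. The number of members called by edgeR moved by over 1.5 times as follows, and the cause was not tested. In WT mice, Pio on the control diet gave 4 members, 11 with limma (23.9% of all genes) and 2 to 6 when 1 mouse was left out. Pio on the HFD gave 1, 0 without the filter (0.251%), 6 with limma (8.40%), 3 with DESeq2 (2.85%) and 0 to 5 with a mouse left out. The HFD without Pio gave 0, 1 with limma (2.53%), 4 with DESeq2 (2.98%), 3 with WT fitted alone (2.63%) and 0 to 7, and the HFD with Pio 0, 9 with limma (22.7%), 2 alone (1.56%) and 0 to 2. In KO mice, Pio on the control diet gave 6, 2 without the filter (2.94%) and 0 with KO fitted alone (0% of all genes). It gave 1 with KO alone without mouse 13 (2.23%) and 0 to 10 with a mouse left out. The HFD without Pio gave 0, 2 with limma (4.19%), 1 with DESeq2 (0.419%) and 0 to 1. The HFD with Pio gave 2, 0 without the filter (0.291%), 4 with DESeq2 (8.01%) and 0 with KO alone (0%). It gave 0 with KO alone without mouse 13 (0.147%) and 0 to 7 with a mouse left out. The diet difference in WT mice gave 0, 4 with limma (10.6%) and 0 to 3. The genotype difference gave 4 for Pio on the control diet, 11 with limma (15.4%) and 2 to 6. It gave 0 for Pio on the HFD, 2 with limma (2.74%) and 0 to 0, 0 for the HFD without Pio, 2 with limma (1.43%), 2 with DESeq2 (0.720%) and 0 to 1, and 0 for the HFD with Pio, 3 with limma (7.53%) and 0 to 1. Leaving out KO Pio mouse 13 gave the 5 (11.6% of all genes), the 7 (6.56%) and the upper 2 (8.68%) in WT mice. It also gave the 3 in the diet difference (5.16%) and the 1 for the HFD without Pio in KO mice (0.386%) and in the genotype difference (1.05%). The share of all genes is not given here for the remaining fits without 1 mouse, so their counts have no background. In WT mice under Pio on the control diet, the 2 came without WT control mouse 834 or 835 or WT Pio mouse 842 or 845. Under Pio on the HFD, 27 of 40 fits gave 0. For the HFD without Pio, 2 came without WT HFD mouse 827, WT control mouse 831 or KO HFD mouse 9, and 1 without WT HFD mouse 826, WT control mouse 833, 834 or 835 or WT Pio mouse 842. For KO mice under Pio on the control diet, leaving out KO Pio mouse 13 gave 0 (0.510% of all genes), as did leaving out control mouse 1 or 4 of that genotype. Leaving out its control mouse 3 gave 1, and its Pio mouse 11 or 14 gave 10. For the HFD with Pio in KO mice, 0 members were called when mouse 13 or any HFD-Pio mouse was dropped, and 23 fits gave 1. Dropping WT control mouse 832 or KO mouse 15 gave 4, KO mouse 14 gave 5 and KO mouse 11 gave 7. In the genotype difference, the 2 for Pio on the control diet came when KO control mouse 3 was dropped, and the 1 for the HFD with Pio when KO mouse 11 was.

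Without TMM scaling, the 2a sum in KO Pio mice was 509.6 CPM in place of 494 CPM and the 2j sum in WT Pio mice 451 in place of 489 CPM. With 5 mice a group and genes near 1 CPM, small changes of low members could not be detected. No paired analysis was possible because the replicate numbers are mouse numbers, of which the groups share none.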
